A study of Mus musculus with 4 samples.

Results

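The 8 genes described here are core members of the Hedgehog signalling pathway: the ligand Shh, the receptors Ptch1 and Smo, the ligand-binding inhibitor Hhip, the cytoplasmic inhibitor Sufu and the transcription factors Gli1, Gli2 and Gli3. They were chosen by name from 21887 protein-coding genes, and each was studied in a window made of its gene body and 50 kb on each side (mm10 coordinates). The chromatin came from mouse embryonic stem cells derived from blastocysts, assayed by single-nucleus ATAC-seq within a 10x Genomics Multiome experiment. In this assay a transposase cuts open DNA, and stretches with many cuts are called as peaks. The 4 groups held 1 library each: Cdc14ab knockout (KO) at day 5, wild type (WT) at day 5, KO at day 0 and WT at day 0. Cdc14a and Cdc14b encode phosphatases that counter cyclin-dependent kinases. Day 0 cells were kept in medium with LIF, a cytokine that maintains pluripotency, and day 5 cells had spent 5 days in N2B27 medium with EGF and FGF2 for neural differentiation. All cells had been grown on feeder cells, were moved to gelatin at low density to lose the feeders, and went through dead cell removal and DNase I treatment. All 4 libraries bear the label clone 3, so each genotype was represented by a single clone label, and a difference between lines cannot be told apart from an effect of the knockout. With 1 library per group nothing below has a replicate check, no value has an error, and every comparison describes these 4 libraries.

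In the absence of ligand, Ptch1 holds Smo inactive, and Sufu, with kinases acting at the primary cilium, keeps the Gli proteins from activating transcription. Binding of Shh to Ptch1 releases Smo, which leads to Gli activation, and Gli1, Ptch1 and Hhip are themselves classical targets that report pathway activity. In the developing neural tube, Shh from the notochord and floor plate sets the ventral identities of progenitors, with Gli3 acting mainly as a repressor. A peak shows open DNA and not transcription, so nothing below measures the activity of the pathway.

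The peak lists held 227878 peaks in KO day 5, 189571 in WT day 5, 222257 in KO day 0 and 198860 in WT day 0, and covered 197.3, 162.5, 190.3 and 168.8 Mb in that order. Peaks had no height and no depth was given, so where a peak is missing, fewer reads and closed chromatin cannot be told apart. The WT day 5 library stood apart: it alone had a peak at each of the Y-linked genes Eif2s3y, Uty and Ddx3y, which had 0 peaks in the other 3 libraries. Kdm5d, also examined on Y, had 0 peaks in all 4 libraries. Y as a whole held 14 peaks in KO day 5, 20 in WT day 5, 16 in KO day 0 and 16 in WT day 0. Whether the WT day 5 library holds cells of another line or type was not tested, and this bears on every value that uses WT day 5. All 8 pluripotency genes with an annotated start, of 10 such markers listed, had a peak at the start in every library, and so did 7 of 7 such neural progenitor genes, also of 10 listed. Of the 11 fibroblast genes (feeder markers), 6 had an annotated start, and 5, 6, 5 and 4 of these had a start peak in KO day 5, WT day 5, KO day 0 and WT day 0. Prrx1, a fibroblast transcription factor, had a start peak in WT day 5 alone. Summed coverage of the 11 fibroblast loci was 144.1, 140.5, 149.8 and 117.8 kb in the same order. The 10 pluripotency loci summed to 241.2, 178.2, 257.0 and 238.1 kb, and the 10 neural progenitor loci to 168.9, 164.7, 162.2 and 166.6 kb. These raw sums do not allow for the different totals covered by the libraries. Ratios of the fibroblast loci that do so are given below. A peak at a start does not by itself place a cell type, since starts are often open in cells that do not use the gene.

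The promoter sequences show what lies under the peak at the start of the genes on which the results turn. RefSeq gives a start and strand in GRCm38.p6, whose chromosome coordinates are those of mm10, for 6 of the 8 genes (Ptch1, Smo, Gli2, Gli3, Sufu and Hhip). The 250 bases before the start, 5′ to 3′ on the gene's strand, are printed for Hhip, whose window differed most between libraries (chr8:80058009-80058258, minus strand), for Gli3, which ranked next (chr13:15463473-15463722, plus strand), and for Ptch1, the receptor and target gene (chr13:63565736-63565985, minus strand). Capitals mark bases under a peak in all 4 libraries.
Hhip: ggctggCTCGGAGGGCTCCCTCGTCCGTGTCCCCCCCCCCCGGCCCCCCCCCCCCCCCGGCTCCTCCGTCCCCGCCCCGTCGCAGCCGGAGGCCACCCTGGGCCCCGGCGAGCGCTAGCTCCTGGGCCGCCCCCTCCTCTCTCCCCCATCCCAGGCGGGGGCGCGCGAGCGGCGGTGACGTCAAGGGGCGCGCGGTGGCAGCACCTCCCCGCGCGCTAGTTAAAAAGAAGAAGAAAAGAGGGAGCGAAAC
Gli3: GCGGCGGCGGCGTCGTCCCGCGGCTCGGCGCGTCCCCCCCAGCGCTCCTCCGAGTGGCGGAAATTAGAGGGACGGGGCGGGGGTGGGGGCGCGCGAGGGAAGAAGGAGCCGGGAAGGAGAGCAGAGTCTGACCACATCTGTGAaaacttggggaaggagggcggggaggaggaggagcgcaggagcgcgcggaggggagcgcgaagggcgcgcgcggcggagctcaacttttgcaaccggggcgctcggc
Ptch1: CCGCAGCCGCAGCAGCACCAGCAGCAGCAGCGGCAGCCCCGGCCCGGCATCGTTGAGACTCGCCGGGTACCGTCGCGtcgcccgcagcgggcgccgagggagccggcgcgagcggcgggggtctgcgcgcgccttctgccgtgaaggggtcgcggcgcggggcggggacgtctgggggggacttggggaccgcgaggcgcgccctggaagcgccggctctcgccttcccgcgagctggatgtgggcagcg
In Gli2 the capitals mark instead a 7-letter match to the inner part of the GLI consensus (chr1:119053620-119053869, minus strand), and its whole stretch was under a peak in all 4 libraries.
Gli2: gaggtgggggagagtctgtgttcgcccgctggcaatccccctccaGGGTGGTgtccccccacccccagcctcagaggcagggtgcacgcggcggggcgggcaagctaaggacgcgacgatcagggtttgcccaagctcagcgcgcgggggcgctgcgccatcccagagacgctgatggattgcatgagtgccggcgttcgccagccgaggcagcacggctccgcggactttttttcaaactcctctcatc

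All 6 genes with an annotated start had a peak within 1 kb of it in all 4 libraries, as did 58.7% of the 32851 starts in the RefSeq table. The shared peaks held 244 of the 250 printed bases at Hhip, 143 at Gli3, 77 at Ptch1 and 250 each at Smo, Gli2 and Sufu. At Gli3 and Ptch1 the start itself thus lay beside a peak and not under one, with 91, 79, 93 and 101 bp from the Gli3 start to the nearest peak and 148, 174, 144 and 148 bp from the Ptch1 start (KO day 5, WT day 5, KO day 0, WT day 0). Guanine and cytosine made up 78.4% of the 250 bases at Ptch1, 76.0% at Hhip, 72.8% at Gli3, 68.4% at Smo, 67.2% at Gli2 and 54.0% at Sufu, all above the median of 52.4% over all promoters. CpG dinucleotides numbered 41, 28, 34, 15, 22 and 8 in the same order of genes, against a median of 6. The GLI consensus GACCACCCA, searched on both strands (TGGGTGGTC on the other), was found in 0 of the 6 promoters and in 74 of 32851 promoters of the table, or 0.225%. Its inner 7 letters, ACCACCC on one strand, were searched in the same way after the first result was seen. They occurred in Gli2 alone of the 6, there read from the opposite strand as GGGTGGT and starting 205 bases before the start, and in 3.92% of all promoters. They lie inside the longer motif, and a match or its absence is a description of this 250-base stretch.

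Together the 8 windows span 1.58 Mb and held 254 peaks in KO day 5, 230 in WT day 5, 222 in KO day 0 and 218 in WT day 0. Peaks covered 13.5% of the window bases in KO day 5, 12.1% in WT day 5, 11.8% in KO day 0 and 11.5% in WT day 0. The windows of all protein-coding genes were covered to 11.2, 9.05, 11.4 and 10.4% in the same order, so the Hedgehog windows were covered more than the whole in each library, by the widest margin in both day 5 libraries. Peaks in the 8 windows were slightly narrower than the whole lists, with median widths of 864, 869.5, 867 and 865 bp against 882, 879, 877 and 873 bp for all peaks. Compared per length by the share of the window covered, Sufu ranged from 19.8 to 23.4% over the 4 libraries, Gli1 from 19.2 to 20.6%, Smo from 11.9 to 19.9%, Ptch1 from 12.2 to 12.7%, Gli2 from 9.43 to 12.7%, Gli3 from 5.68 to 10.8%, Shh from 6.42 to 10.4% and Hhip from 4.13 to 9.47%. Sufu was the most covered in every library, while the lowest was Hhip in KO day 5 and KO day 0, Shh in WT day 5 and Gli3 in WT day 0. With no replicates, genes close in share cannot be told apart by their spread.

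**Figure D1:**
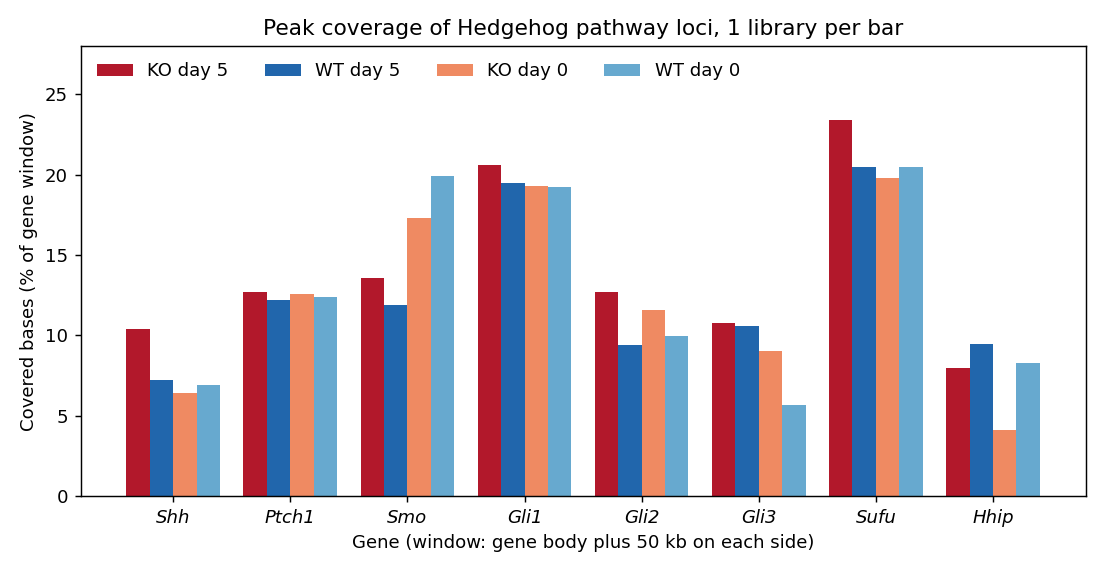
Share of each gene window (gene body plus 50 kb on each side) under peaks, in percent, with 1 bar per library in the order KO day 5, WT day 5, KO day 0 and WT day 0. Hhip is lowest in KO day 0 (4.13%), Gli3 is lowest in WT day 0 (5.68%), and Smo is lower in both day 5 libraries than in both day 0 libraries.

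The libraries differed in how much of a typical locus they covered, so each comparison was read relative to the median locus. The locus ratio is log2 of the covered bp of one library over the other, with 500 bp added to each, minus the median of that ratio over the 20806 protein-coding genes with any covered base. These medians were 0.31 for KO over WT at day 5, 0.11 for KO over WT at day 0, -0.03 for day 5 over day 0 in KO and -0.22 for day 5 over day 0 in WT. A locus was called higher or lower when it differed from the median locus by more than 1.5 fold.

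The single genotype difference past 1.5 fold was at Hhip at day 0. For KO over WT at day 5, 0 of 8 loci were called higher, against 7.92% of all genes, and 0 lower, against 4.23% of all genes. For KO over WT at day 0, 0 of 8 were called higher, against 4.6% of all genes, and 1 lower (Hhip), against 3.05% of all genes. The median of the 8 ratios was -0.17 at day 5 and -0.12 at day 0, and 6 of 8 loci lay below the median locus on each day. On differentiation in KO, 2 of 8 loci were called higher (Hhip and Shh), against 7.66% of all genes, and 0 lower, against 2.46% of all genes. In WT, 1 was called higher (Gli3), against 10.0% of all genes, and 0 lower, against 6.28% of all genes. The 8 ratios of day 5 over day 0 had medians of 0.21 in KO and 0.24 in WT, with 7 of 8 above the median locus in each genotype and Smo the exception in both. Each of these counts is 0, 1 or 2 loci, so nothing particular to the list is read from them.

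**Figure D2:**
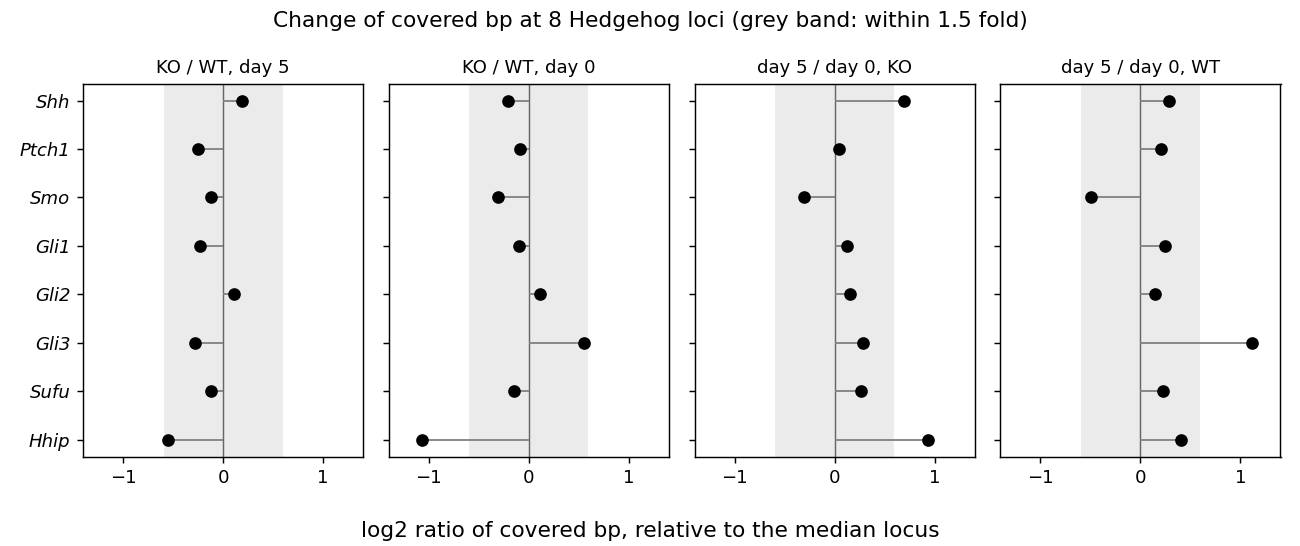
Locus ratio of each Hedgehog gene (log2 of covered bp, relative to the median locus) in the 4 comparisons, 1 point per gene, with the grey band marking differences within 1.5 fold. Outside the band lie Hhip for KO over WT at day 0 (-1.07), Shh (0.69) and Hhip (0.94) for day 5 over day 0 in KO, and Gli3 (1.11) for day 5 over day 0 in WT.

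Shh, the secreted ligand (chr5:28456840-28467101), was covered over 11.5 kb of its 110.3 kb window in KO day 5, 8.0 kb in WT day 5, 7.1 kb in KO day 0 and 7.6 kb in WT day 0. In raw length KO day 5 was the highest. Relative to each library's median, log2 coverage was -0.50, -0.68, -1.22 and -0.99 in the same order, so both day 5 libraries lay above both day 0 libraries. At day 5 relative to day 0 the locus rose in KO, with a log2 ratio of 0.69, or 1.61 fold over the median locus, and this call was lost with flanks of 100 kb (0.38). In WT the ratio of day 5 over day 0 was 0.29, within the 1.5-fold band. The ratio of KO over WT was 0.19 at day 5 and -0.21 at day 0. Of its 14 joined regions, 6 had a peak in all 4 libraries, including one over the high-coordinate end of the gene, where 974, 904, 985 and 857 bp lay within 1 kb of the end (KO day 5, WT day 5, KO day 0, WT day 0). A joined region is a stretch in which peaks of the libraries overlap by at least 1 bp. The one region of the gene body that was open at day 5 in both genotypes and at day 0 in neither (chr5:28458945-28461191) held 1777 bp of peaks in KO day 5 and 791 bp in WT day 5. No region was limited to 1 genotype at both days, and 2 regions with a peak in KO day 5 alone and 2 with a peak in WT day 5 alone lay in the flanks.

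Ptch1, the receptor that binds the ligand and is itself a target gene (chr13:63508328-63573460), was the steadiest locus in covered share. Its covered length was 21.0 kb in KO day 5, 20.2 kb in WT day 5, 20.7 kb in KO day 0 and 20.4 kb in WT day 0. The 4 libraries thus differed by less than 1 kb of a 165.1 kb window, and the ratios lay between -0.25 (KO over WT at day 5) and 0.21 (day 5 over day 0 in WT). Within 1 kb of the annotated start, peaks covered 799, 809, 1613 and 853 bp (KO day 5, WT day 5, KO day 0, WT day 0). The higher value of KO day 0 came from an additional peak 0.6 kb into the gene (chr13:63564722-63565490) that was listed in no other library. The high-coordinate end of the gene, upstream of this annotated start, was covered over 1256, 1292, 1284 and 1351 bp within 1 kb. In all, 16 of the 34 joined regions were in all 4 libraries. A region 40.8 kb into the gene (chr13:63524502-63525369) had peaks in WT alone, of 815 bp at day 5 and 813 bp at day 0. Another, 50.9 kb into the gene (chr13:63513967-63515736), had peaks at day 5 alone, of 1416 bp in KO and 850 bp in WT.

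Smo, the membrane protein that passes the signal on once Ptch1 is bound (chr6:29735497-29761366), was the single locus of the 8 with lower ratios at day 5 in both genotypes. Covered length was 17.2 kb in KO day 5, 15.0 kb in WT day 5, 21.8 kb in KO day 0 and 25 kb in WT day 0, so both day 5 libraries lay below both day 0 libraries. The day 5 over day 0 ratio was -0.31 in KO and -0.50 in WT, both within the 1.5-fold band. Over the gene body alone, 2895 bp were covered in KO day 5, 1758 bp in WT day 5, 4498 bp in KO day 0 and 6486 bp in WT day 0, which gave a day 5 over day 0 ratio of -1.58 in WT, where 16.7% of all genes were called lower. This WT ratio was past 1.5 fold in 4 of 11 other settings tried, and the gene body alone is 1 of the 4. The start was covered over 1189, 1119, 1165 and 1134 bp within 1 kb and did not share the difference. Day 0 in both genotypes alone held 4 of the 36 joined regions, or 11.1% against 6.01% in all gene windows. Of these, 1 lay 3.3 kb into the gene (chr6:29738393-29739287, 895 bp in KO and 839 bp in WT). A further 6 were in all libraries but WT day 5, or 16.7% against 9.11% in all gene windows. Of the 36 regions, 18 lay over the neighbouring genes Tspan33 and Ahcyl2.

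Hhip, which binds the ligand at the cell surface and so dampens signalling (chr8:79965850-80058060, with no other protein-coding gene in its 192.2 kb window), varied most. Peaks covered 15.3 kb in KO day 5, 18.2 kb in WT day 5, 7.9 kb in KO day 0 and 15.9 kb in WT day 0. KO day 0 was the low library. Relative to each library's median, log2 coverage was -0.10, 0.46, -1.07 and 0.03 in the same order. At day 0 the locus fell to 9 peaks in KO, against 18 in WT, with a ratio of -1.07, or 0.476 fold, which placed it at percentile 1.09 of all genes. At day 5 the window held 18 peaks in KO and 21 in WT. The ratio of KO over WT there was -0.55, or 0.684 fold, at percentile 4.86 of all genes and only just inside the band. At day 5 relative to day 0 it rose in KO, with a ratio of 0.94, or 1.91 fold, against 0.41 in WT. The first and the third of these ratios rest on the same KO day 0 library and are not separate evidence. The call at day 0 uses neither day 5 library, and it held in all 11 other settings, where the ratio ran from -1.28 to -0.59. The weakest value (-0.5869) came with flanks of 100 kb and only just passed 1.5 fold. Several of the settings changed only the pseudocount or the scaling between libraries. For KO over WT at day 0 the 11 fibroblast loci had a median ratio of 0.31, with 10 above the median locus, 1 called higher and 0 lower. The 10 neural progenitor loci had a median of -0.16 with 0 called.

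The lower coverage of Hhip in KO day 0 lay mostly within the gene body. The body held 11744 bp in KO day 5, 12664 bp in WT day 5, 4088 bp in KO day 0 and 10409 bp in WT day 0. The start peak was listed in all 4 libraries at near equal size, with 904, 835, 877 and 895 bp within 1 kb, and was not part of the difference. Of the joined regions listed at day 0, 7 were shared, 2 were in KO and not in WT, and 11 were in WT and not in KO. Among those 11, 6 had a peak in the other 3 libraries as well, a pattern of 22.2% of the 27 regions at Hhip and of 1.76% of the regions in all gene windows. This share follows in part from the low peak number of KO day 0 and is not separate evidence. These 6 regions lay 2.1, 20.1 and 26.2 kb into the gene and 103.1, 104.9 and 128.2 kb from the start in the downstream flank. Another pair of regions of the body, 31.0 and 32.4 kb from the start, had peaks in WT on both days and in KO on neither: chr8:80026536-80027573 with 972 bp at day 5 and 841 bp at day 0, and chr8:80025108-80026026 with 826 and 903 bp. That pattern made up 7.41% of the regions at Hhip, against 0.857% in all gene windows. A further 4 regions of the body had peaks at day 5 in both genotypes and at day 0 in neither, or 14.8% against 4.48%. The widest lay 75 kb into the gene (chr8:79982190-79983809, 1230 bp in KO and 1423 bp in WT). KO day 5 held 12 regions that KO day 0 did not, and WT day 5 held 7 that WT day 0 did not.

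**Figure D3:**
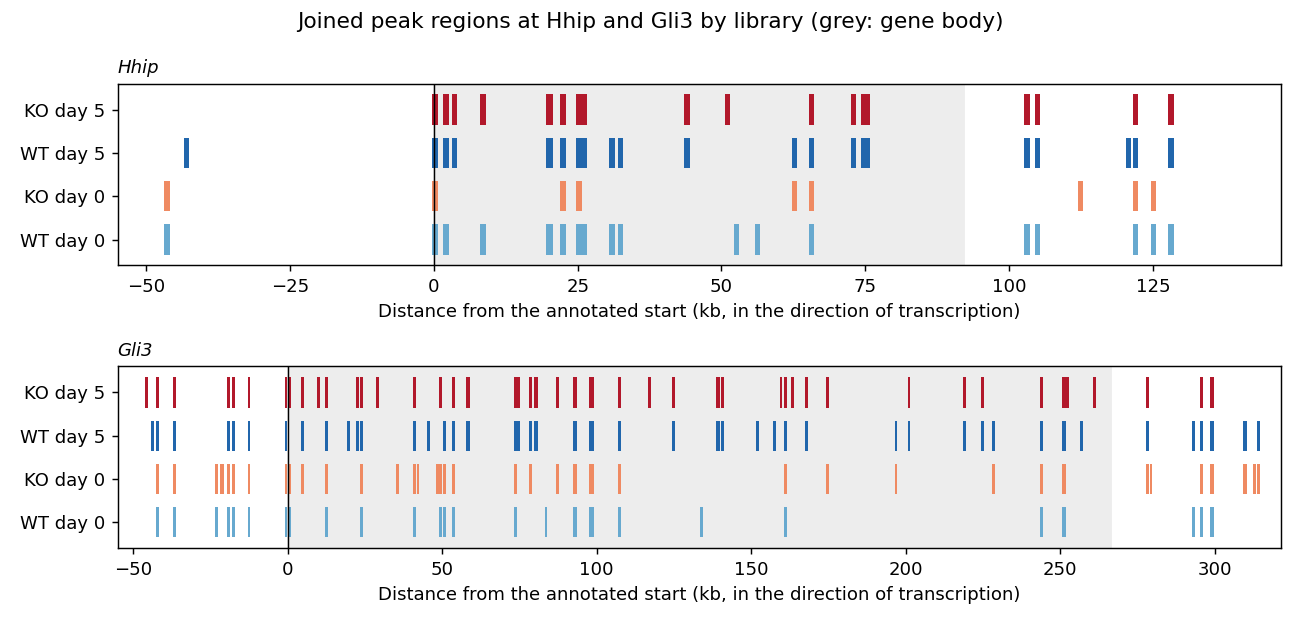
Joined peak regions in the windows of Hhip and Gli3, 1 row per library (KO day 5, WT day 5, KO day 0, WT day 0), against distance from the annotated start in kb along the direction of transcription, with the gene body in grey. At Hhip the KO day 0 row holds 9 regions against 18 in WT day 0, and at Gli3 15 regions of the KO day 0 row have no peak in WT day 0, while 3 of the WT day 0 row have none in KO day 0.

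Sufu, which binds Gli proteins and restrains them in the cytoplasm (chr19:46396896-46488804), had the highest covered share. Covered length was 44.9 kb in KO day 5, 39.4 kb in WT day 5, 38.1 kb in KO day 0 and 39.3 kb in WT day 0. In raw length KO day 5 was somewhat higher and the others lay within 1.5 kb of each other. Relative to each library's median, log2 coverage was 1.42, 1.55, 1.12 and 1.31 in the same order, with WT day 5 the highest. No ratio was called, the lowest being -0.15 (KO over WT at day 0) and the highest 0.26 (day 5 over day 0 in KO). The start peak was nearly constant at 840, 845, 839 and 837 bp within 1 kb. Of its 64 joined regions, 33 were in all 4 libraries, and 20 lay over the neighbouring genes Mfsd13a, Actr1a, Trim8 and Arl3. At day 5 alone, in both genotypes, 3 regions had peaks, all in the body, or 4.69% against 4.48% in all gene windows. The widest lay 40.8 kb into the gene (chr19:46437205-46438235, 902 bp in KO and 883 bp in WT).

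Gli1, the Gli activator whose gene is a classical readout of the pathway (chr10:127329882-127341579), had no called ratio. Covered length was 23.0 kb in KO day 5, 21.8 kb in WT day 5, 21.6 kb in KO day 0 and 21.4 kb in WT day 0, and the ratios lay between -0.23 and 0.25. This window is crowded: 8 other protein-coding genes overlap it, and 22 of its 36 joined regions lay over them. The gene body itself held 4053 bp in KO day 5, 3546 bp in WT day 5, 3987 bp in KO day 0 and 3349 bp in WT day 0. The high-coordinate end had 572, 607, 541 and 556 bp within 1 kb and the low-coordinate end had 0 in every library. Of the 36 regions, 2, over Mbd6 and Inhbe, had peaks in KO at both days alone, or 5.56% against 3.66% in all gene windows. WT at both days alone held 1 (2.78% against 0.857%), and day 0 alone in both genotypes held 2 (5.56% against 6.01%).

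Gli2, the main activator of the family in the mouse (chr1:118834061-119054405), had more covered bases in both KO libraries. Its covered length was 40.6 kb in KO day 5, 30.2 kb in WT day 5, 37.2 kb in KO day 0 and 31.8 kb in WT day 0. Relative to the median locus the difference was small, with ratios of 0.11 and 0.12 for KO over WT at day 5 and day 0 and 0.15 for day 5 over day 0 in each genotype. No ratio was called. The start peak covered 892, 889, 841 and 850 bp within 1 kb. In its 65 joined regions, 3 had peaks in KO at both days alone, or 4.62% against 3.66% in all gene windows. WT at both days alone held 0, against 0.857%. The 3 KO regions were 6.4 kb before the start (chr1:119059484-119060460, 916 and 887 bp at day 5 and day 0) and 171.9 and 188.7 kb into the gene. The day 5 libraries alone shared 7 regions, 5 of them in the body, which is 10.8% of the regions at Gli2 against 4.48% over all gene windows.

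Gli3, the family member that acts largely as a repressor (chr13:15463723-15730026, with no other protein-coding gene in its 366.3 kb window), rose on differentiation in WT. Covered length was 39.7 kb in KO day 5, 39.0 kb in WT day 5, 33.2 kb in KO day 0 and 20.8 kb in WT day 0. In raw length both day 5 libraries were high and nearly equal, and WT day 0 was the low one. Relative to each library's median, log2 coverage was 1.25, 1.54, 0.93 and 0.41 in the same order. The day 5 over day 0 ratio was 1.11 in WT, or 2.16 fold, and 0.28 in KO, which is within the band. KO over WT was -0.28 at day 5 and 0.55 at day 0, and the call in WT and the ratio at day 0 both rest on the WT day 0 library. The call in WT held in all 11 other settings, from 0.83 to 1.22. It uses the WT day 5 library, and without that library no WT ratio over time can be had. Over the same WT comparison the 11 fibroblast marker loci had a median ratio of 0.52, with 5 called higher, 0 lower and 10 above the median locus, and their part in the result at Gli3 was not tested.

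The added coverage at Gli3 in WT lay mostly in the gene body. The body held 31456 bp in KO day 5, 27519 bp in WT day 5, 20258 bp in KO day 0 and 12824 bp in WT day 0. The downstream flank held 2625, 5429, 6339 and 2641 bp in the same order, and the upstream flank 5625, 6053, 6595 and 5340 bp. The body held 48 of the 66 joined regions. Peaks at day 5 in both genotypes and at day 0 in neither marked 11 regions, or 16.7% against 4.48% in all gene windows. The share draws on the same peaks as the ratios of day 5 over day 0 and is not separate evidence. All 11 regions lay in the body. They ran from 22.5 to 225.0 kb into the gene, and the 3 widest were chr13:15521444-15522869 (1076 bp in KO and 775 bp in WT), chr13:15602443-15603507 (1007 and 845 bp) and chr13:15543603-15544602 (902 and 951 bp). A further 8 regions were in KO day 5 alone and 6 in WT day 5 alone, or 12.1 and 9.09% against 9.39 and 7.81% in all gene windows. KO day 5 held 19 of 60 regions with no peak in either day 0 library when WT day 5 was left out, a larger count by construction, since 1 library then stands for day 5. Around the start, peaks covered 1690 bp in KO day 5, 787 bp in WT day 5, 1460 bp in KO day 0 and 1517 bp in WT day 0. The low value of WT day 5 reflects the peak 0.5 kb into the gene (chr13:15463814-15464666), which was listed in the other 3 libraries and not in this one, while the peak just before the start was in all 4.

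Over all 8 windows the peaks joined into 342 regions, of which 185 (54.1%) lay in the gene bodies and 64 over other protein-coding genes. Peaks of all 4 libraries met in 132 regions, or 38.6%, against 36.0% of the 266329 regions in all gene windows. Day 5 in both genotypes alone accounted for 28 regions, or 8.19%, against 4.48% of all. Of the 28, 25 were in gene bodies, 11 of them at Gli3, 5 at Gli2 and 4 at Hhip. The body held 72.7% of all joined regions at Gli3, 72.3% at Gli2 and 66.7% at Hhip. The share of such regions in the bodies of all genes was not computed. Day 0 in both genotypes alone accounted for 15, or 4.39%, against 6.01% of all. KO at both days alone accounted for 9, or 2.63%, against 3.66% of all, and WT at both days alone for 8, or 2.34%, against 0.857% of all. These 8 were spread over 6 genes, with 2 each at Smo and Hhip and 1 each at Ptch1, Gli1, Gli3 and Sufu. Without the WT day 5 library, 325 regions remained. Of these, KO alone held 17 of 325, WT day 0 alone 25 of 325 and KO day 5 alone 64 of 325. The shares over all regions were 7.25, 6.32 and 15.1% in the same order, and these counts are larger by construction. Of the rest, 92 regions (26.9%, against 30.1% of all) were in a single library.

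**Figure D4:**
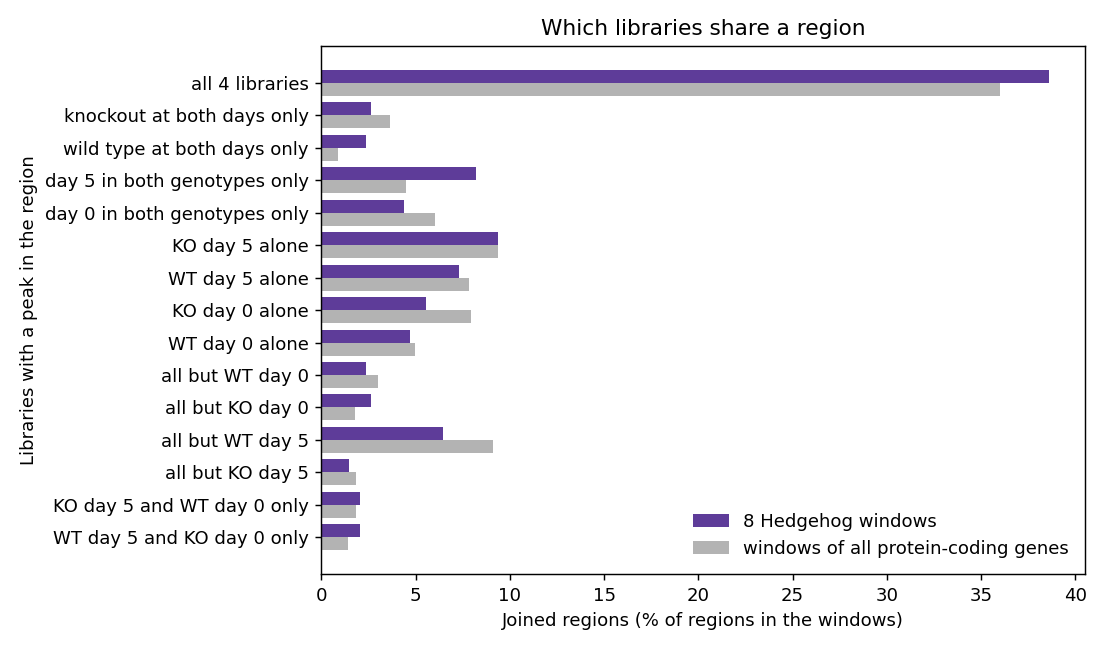
Share of joined regions, in percent of the regions in the windows, by the set of libraries with a peak, for the 8 Hedgehog windows and for the windows of all protein-coding genes. Day 5 in both genotypes alone holds 8.19% of the Hedgehog regions against 4.48% of all regions, and regions in all 4 libraries make up 38.6% against 36.0%.

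The profiles of Hhip and Gli3 over the 4 libraries were set beside those of all other genes, by the distance between log2 profiles after each gene's own mean was removed. The range of the log2 profile, relative to the library median, was 1.52 at Hhip, highest in WT day 5 and lowest in KO day 0, and 1.13 at Gli3, highest in WT day 5 and lowest in WT day 0. Closest to Hhip were Fap (distance 0.11), Bend7 (0.13) and Mc4r (0.15). Fap was covered over 5.4 kb in KO day 5, 6.3 kb in WT day 5, 2.9 kb in KO day 0 and 5.7 kb in WT day 0. Fap encodes a protease of activated fibroblasts and Mc4r a melanocortin receptor. Closest to Gli3 were Unc13c (0.04), Ubash3b and Grm7 (0.06 each). Unc13c, a gene of synaptic vesicle priming, was covered over 26.5 kb in KO day 5, 26.5 kb in WT day 5, 21.9 kb in KO day 0 and 14.1 kb in WT day 0. Such likeness rests on 4 libraries and ties the genes to no shared function.

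The rest of the pathway was followed in 56 genes grouped by role. For KO over WT at day 5, 1 was called higher and 4 lower, or 1.79 and 7.14% against 7.92 and 4.23% of all genes, with a median ratio of -0.07. At day 0 the same comparison called 0 higher and 0 lower, against 4.6 and 3.05% of all genes (median 0.03). In KO, 2 were called higher and 0 lower at day 5 relative to day 0, or 3.57 and 0% against 7.66 and 2.46% of all genes (median 0.03). In WT, 10 were called higher, or 17.9% against 10.0% of all genes, and 0 lower, against 6.28% (median 0.17). Those 10 comprise 4 neural tube targets, 3 general targets and 1 gene in each of the other 3 lists.

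Neural tube targets, the transcription factors that Shh induces or represses in the ventral spinal cord, had the lowest median of the 5 lists for KO over WT at day 5 and the highest for day 5 over day 0 in WT. All 12 lay below the median locus for KO over WT at day 5 (median -0.38), and 2 were called lower, Ferd3l (-0.999) and Olig2 (-0.64), with Dbx2 the highest (-0.05). Olig2, which specifies motor neuron progenitors, was covered over 12.3 kb in KO day 5, 15.6 kb in WT day 5, 15.8 kb in KO day 0 and 16.0 kb in WT day 0. In raw length KO day 5 was the low library. Relative to the median locus, the Olig2 ratio of day 5 over day 0 was -0.32 in KO and 0.19 in WT. Ferd3l, a gene of floor plate progenitors, was covered over 5.1, 8.6, 6.1 and 7.0 kb in the same order of libraries. Twist1 of the fibroblast list, also on chromosome 12, was covered over 5.0, 8.0, 5.3 and 6.1 kb. Whether the windows of Ferd3l and Twist1 share bases was not computed, so their ratios may not be separate. For KO over WT at day 0 the 12 neural tube targets had a median of -0.13 with 0 called, with Dbx2 at 0.28 and Dbx1 at -0.31. For day 5 over day 0 in WT, all 12 lay above the median locus (median 0.40), and 4 were called higher: Nkx2-2 (0.80), Foxa2 (0.77), Dbx2 (0.76) and Irx3 (0.59). In KO the median was 0.13, and Foxa2 (0.68) and Nkx2-9 (0.59) were called higher. Foxa2, the floor plate factor, was covered over 11.9 kb in KO day 5, 12.7 kb in WT day 5, 7.4 kb in KO day 0 and 8.5 kb in WT day 0, so it was higher at day 5 in both genotypes. The 2 comparisons with the larger medians share the WT day 5 library. Beside them stand the marker lists. For KO over WT at day 5, the 11 fibroblast loci had a median of -0.79, with 0 called higher and 6 lower. The 10 neural progenitor loci had a median of -0.39 there, with 0 called. For day 5 over day 0 in WT, the fibroblast loci had a median of 0.52, with 5 called higher and 0 lower. The neural progenitor loci had a median of 0.28 there, with 0 called. The 10 pluripotency loci had medians of 0.04 and -0.24 in these 2 comparisons. The part of the marker loci in the neural tube list was not tested.

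General targets (10 genes of cell cycle, survival and mesenchymal signalling) had medians of -0.11 for KO over WT at day 5, 0.21 for KO over WT at day 0, -0.04 for day 5 over day 0 in KO and 0.34 for day 5 over day 0 in WT. Igfbp3, which binds insulin-like growth factors, was called lower for KO over WT at day 5 (-0.76) and higher on differentiation in WT (0.85). It was covered over 13.1 kb in KO day 5, 18.1 kb in WT day 5, 13.7 kb in KO day 0 and 11.6 kb in WT day 0, so WT day 5 was the high library. Bcl2, the inhibitor of apoptosis, was also called higher on differentiation in WT (0.90), as was Foxl1 (0.59). At day 0 Bcl2 (0.45) was the highest for KO over WT and Bmi1 (-0.26) the lowest.

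Ligand and release genes (8) and reception genes (6) held 3 of the calls. In the ligand list Disp1, which releases the lipid-bearing ligand, was called higher on differentiation in WT (0.65), and for KO over WT the list ran from -0.18 (Disp1) to 0.23 (Ihh) at day 5 and from -0.13 (Scube2) to 0.28 (Disp1) at day 0. In the reception list Gpc3, a cell-surface glypican on X, was called higher for KO over WT at day 5 (0.61), with 50 kb in KO day 5, 26.3 kb in WT day 5, 37.3 kb in KO day 0 and 31.0 kb in WT day 0. Both KO libraries were above both WT libraries, and X as a whole held 6659, 4112, 5565 and 4273 peaks in that order. The co-receptor Cdon was called higher on differentiation in WT (0.83), and for KO over WT was the lowest of the list at day 5 (-0.30) and the highest at day 0 (0.49).

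Among 20 genes of the cilium and of the kinases and ubiquitin ligases that act on Gli proteins, the medians were -0.06 for KO over WT at day 5, -0.0001 for KO over WT at day 0, -0.02 for day 5 over day 0 in KO and 0.0039 for day 5 over day 0 in WT. Efcab7, which tethers the Evc complex at the base of the cilium, was the single called gene of the list, lower for KO over WT at day 5 (-0.73) and higher on differentiation in WT (0.90). It was covered over 12.5 kb in KO day 5, 17.0 kb in WT day 5, 9.1 kb in KO day 0 and 10.4 kb in WT day 0. Gsk3b (0.47) was the highest for KO over WT at day 5, and at day 0 Stk36 (0.44) was the highest and Evc2 (-0.31) the lowest. Of the 4 genes called lower for KO over WT at day 5 in the 5 lists (Ferd3l, Olig2, Igfbp3 and Efcab7), 2 were also called higher on differentiation in WT (Igfbp3 and Efcab7), and both comparisons use WT day 5.

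**Figure D5:**
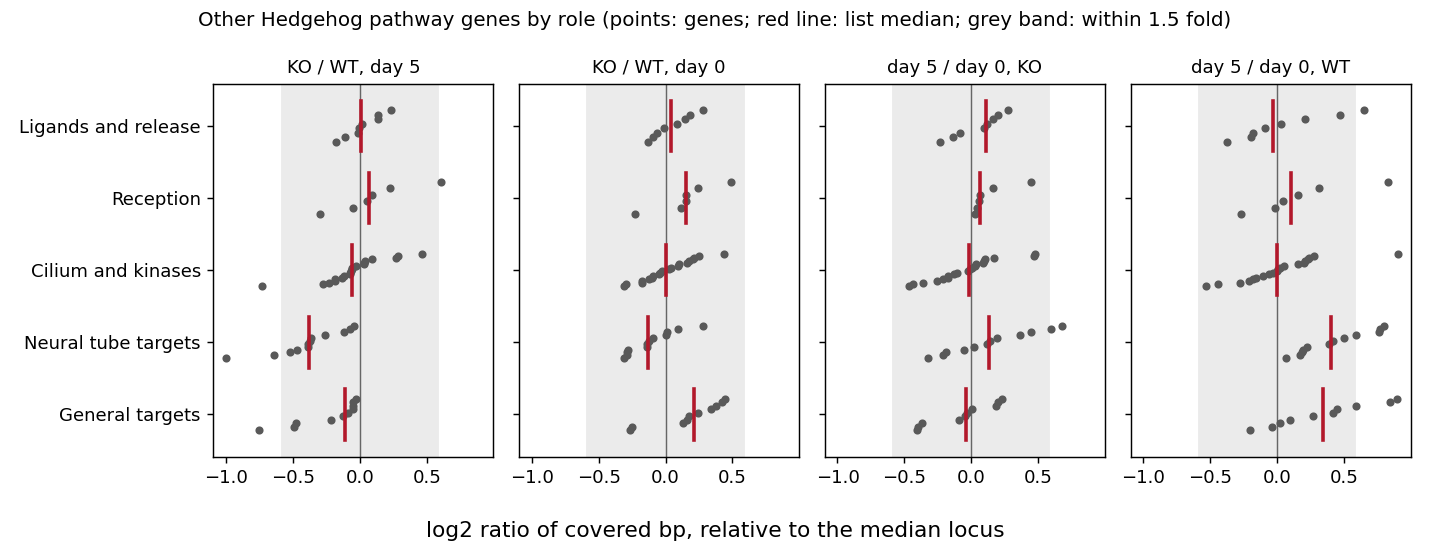
Locus ratios (log2 of covered bp, relative to the median locus) of 56 other Hedgehog pathway genes in 5 lists by role, 1 panel per comparison, with a point per gene, a red line at each list's median and a grey band for differences within 1.5 fold. Neural tube targets have a median of -0.38 for KO over WT at day 5 and 0.40 for day 5 over day 0 in WT.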

How the data were processed

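Chromatin accessibility was measured by single-nucleus ATAC-seq in 4 libraries, 1 per group. The deposited files hold 3 columns, for chromosome, start and end (peak positions in bp, with no score, height or count), and the authors called peaks per library with cellranger-arc 2.0.0 on mm10, per the file headers. Scanpy 1.7.2 is named beside Cell Ranger ARC 2.0.0 in the submitters' processing notes. Cell-by-cell data and RNA were not used here, and how doublets were treated is not given in the sources used here.

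Gene positions came from a RefSeq table of GRCm38.p6, and starts, strands and promoters from 32851 RefSeq entries of the same build. Shh and Gli1 have none, so both gene ends were used. Covered bp were summed in each gene body plus 50 kb on each side, and compared as log2 ratios with a pseudocount of 500 bp, minus the median over 20806 protein-coding genes. A ratio past 1.5 fold was called. The computation was checked by direct counting in sampled gene windows, and on a copy of the WT day 0 peaks with some peaks removed from a set of gene windows. Python 3.11.15, numpy 2.4.6 and pandas 2.3.3 were used.

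All 8 members are named. From each list, the highest and lowest locus in each genotype comparison and up to 6 called loci are named (at least 2000 bp covered on average), with up to 3 of the widest regions of each pattern. The value of 1 list member is not reported here. The single-library regions at Ptch1 and Shh were named after their values were seen. Members and lists were chosen with earlier results of these data known. Depth is unknown, so no interval could be given.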

Additional observations from a re-analysis of the deposited data

Results flagged for a closer look

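At 2 loci the ratio of KO over WT had opposite signs at day 5 and day 0. At Gli3 it was -0.28 at day 5 and 0.55 at day 0, so that the day 5 ratio minus the day 0 ratio was -0.83. At Shh it was 0.19 at day 5 and -0.21 at day 0, a difference of 0.40. The opposite signs did not hold in every setting: with the gene body alone Gli3 was at 0.07 at day 5 and 0.61 at day 0, and Shh at 0.21 and 0.02, and Shh at day 5 was -0.04 with flanks of 10 kb and -0.06 with flanks of 100 kb. None of the first 4 ratios was past 1.5 fold, each rests on 1 library per group, and the differences were not tested.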

How the results depend on the processing

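No paired analysis was possible because each group has 1 library, and for the same reason no replicate could be left out of a group. The ratios of the 8 genes were recomputed under 11 other settings, which left 343 of 352 values on the same side of the 1.5-fold rule, put 8 newly past it and took 1 out (Shh in KO with flanks of 100 kb, 0.38). The sign turned in 25 of the 352, 0 of them past 1.5 fold under either setting, among them Smo (0.47) and Ptch1 (0.28) for KO over WT at day 5 with the gene body alone. Calls at Hhip (KO over WT at day 0; day 5 over day 0 in KO, 0.64 to 1.42) and Gli3 (day 5 over day 0 in WT) held in all 11. With the gene body alone, the median of the 8 genes was 0.14 for KO over WT at day 5 and 0.01 (0.0066) at day 0. In that setting 1 locus (Gli3) was called higher in KO at day 0, against 9.91% of all genes. For day 5 over day 0 in KO, 1 locus was called higher with flanks of 100 kb and 0 at 2 fold, against 5.79 and 3.3% of all genes. In WT, 1 locus (Smo) was called lower with flanks of 10 kb, the gene body alone, neighbouring genes left out or scaling by total covered bp, and 2 (Gli3 and Hhip) were called higher with flanks of 100 kb.

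Among the 56 other pathway genes, flanks of 10 kb gave 2 higher for KO over WT at day 5, against 10.6% of all genes. At day 0 they gave 5 higher and 1 lower for KO over WT, against 7.05 and 3.68% of all genes. For day 5 over day 0 they gave 4 lower in KO, against 6.75% of all genes, and 3 lower in WT. At 2 fold, 0 were called higher and 0 lower for KO over WT at day 5, against 3.99 and 1.43% of all genes. For day 5 over day 0, 0 were called higher in either genotype, against 3.3% of all genes in KO. Numbers of peaks gave 0 higher in KO, against 7.34% of all genes, and 1 lower in WT for day 5 over day 0. The widest peaks in equal numbers gave 4 higher and 1 lower for day 5 over day 0 in KO, against 7.99 and 3.27% of all genes. They also gave 15 regions of the peak map with WT at both days alone. Without the WT day 5 library, a choice made after seeing the data, these map counts were 17 for KO alone, 25 for WT alone and 64 for day 5 alone. The cause of these shifts was not tested, apart from the last, where fewer libraries define each pattern. Unknown depth limits any reading of a missing peak.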
